A study of Mus musculus with 30 samples.

Results

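Mammary glands carrying the Her2/Neu oncogene in mice that lack the type I interferon receptor were compared with glands of receptor-deficient mice without the oncogene. The comparison uses the 9 arrays titled Her2/Neu+/IFNAR1-/- and the 8 arrays titled IFNAR1-/-, which are 17 of the 30 arrays of the series, and describes all 11576 genes with probes that were valued on 50% or more of each group's arrays. All mice were of the 129sv background and 19 weeks old, the tissue was the inguinal mammary gland, and the labels name no treatment. Both groups compared here carry the IFNAR1 deletion, so the oncogene is what the labels say differs between them. The other 13 arrays, 6 Her2/Neu+ and 7 WT (both with an intact receptor), served to estimate the spread and as a second oncogene comparison. Gland RNA labelled with Cy5 was hybridised with Cy3-labelled universal mouse reference RNA, and each value is the log2 ratio of gland over reference, so a value of 0 is the level of the reference. The promoter that drives the oncogene is not given in the sources used here, and neither is the part of Ifnar1 that was deleted. In whole glands, more cells of a type and more RNA per cell cannot be told apart.

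Her2/Neu (ERBB2) is a receptor tyrosine kinase of the ERBB family. It has no known ligand of its own and signals as a dimer with the other family members, which bind EGF-like ligands and neuregulins, and its best known outputs are the RAS-ERK and PI3K pathways. IFNAR1 is a chain of the receptor through which all type I interferons act, by way of JAK kinases and transcription factors that bind interferon-stimulated response elements. Many interferon-stimulated genes can also be induced without that receptor, by type II or type III interferon or directly by IRF3.

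The number of values per array ran from 17485 to 20430 in Her2/Neu+/IFNAR1-/- glands and from 17582 to 20801 in IFNAR1-/- glands. Because the table holds no intensities, it does not show how far a spot stood above background, and precision is limited by how many arrays there are. Values stop at a size of 6, which is called the limit. A value found on several probes of 1 array with identical digits is called a repeated value: there were 8054 ± 1500 per array (SD, n = 9) in Her2/Neu+/IFNAR1-/- glands and 5022 ± 1807 (n = 8) in IFNAR1-/- glands. How they were made is not stated, and the size of a change that rests on them was not measured. The 8 slides and 2 array sets used below are an inference from block numbers and sample order. No inferred slide held arrays of both groups, so slide and oncogene cannot be told apart in this comparison. Both array sets held arrays of both groups. Skeletal muscle genes stood high on 4 of the 17 arrays: the centred mean of 8 measured muscle markers was 3.40 on Her2/Neu+/IFNAR1-/- array 106, and 3.46, 4.04 and 4.31 on IFNAR1-/- arrays 41, 42 and 44, against a highest value of 0.85 on the other Her2/Neu+/IFNAR1-/- arrays. Results are therefore also given without the 3 IFNAR1-/- arrays where that changes them. Array 106 was kept in those fits, so they do not compare groups that are both free of high muscle genes.

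The targeted gene and the oncogene were looked at first. Ifnar1 had log2 ratios from -0.04 to 3.20 with a median of 0.65 in Her2/Neu+/IFNAR1-/- glands (n = 8), against -1.03 to 1.55 with a median of -0.06 in IFNAR1-/- glands (n = 8). The groups overlapped, and the change of 0.84 ± 0.54 (SE) did not pass the test (limma adjusted p = 0.414). Since the 2 probes may lie outside the deleted part, these levels check nothing about the genotype. Ifnar2, the other chain of the receptor, stood at -0.26 ± 0.46 (SD, n = 9) in Her2/Neu+/IFNAR1-/- and 0.10 ± 0.53 (n = 8) in IFNAR1-/- glands (adjusted p = 0.560). Mouse Erbb2, averaged over 10 probes, had log2 ratios of 0.38 ± 0.45 in Her2/Neu+/IFNAR1-/- and 0.52 ± 0.63 in IFNAR1-/- glands, a change of -0.13 ± 0.24 (SE, adjusted p = 0.812). Its probes differed widely, with changes from -0.84 to 1.12. Once repeated values were dropped, the Erbb2 change was 1.42, which did not pass either (limma adjusted p = 0.377). The sign of the Erbb2 change thus depended on how these values were treated. Whether any of the probes detects the transgene is not given, so the oncogene's own level is unknown here. Egfr, the dimer partner that binds EGF, averaged 1.59 ± 0.56 against 1.01 ± 0.40 over 11 probes (change 0.58 ± 0.24, adjusted p = 0.194). Erbb3 and Erbb4 were not among the genes tested.

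Over all genes, 150 passed the test at a Benjamini-Hochberg adjusted p under 0.05, which is 1.3% of those tested. Of these 108 (0.933% of the genes tested) were higher in Her2/Neu+/IFNAR1-/- than in IFNAR1-/- glands and 42 (0.363%) were lower. At an unadjusted p under 0.05 there were 2135 genes, or 18.4%, with 1556 higher (13.4%) and 579 lower (5.0%). The median change of all genes was 0.15 and 61.6% of them had a positive change. Quantile normalization took that median to 0.04 and the split to 40 higher and 67 lower, or 37.4% higher in place of 72.0%. Of the genes reported here 40 higher and 40 lower ones also passed after it. Among the genes given with values below, Casp1, Cdc25a, Cmya5, Dusp6, E2f8, Gbp3, Ifit3, Lcn2, Mcm2, Mlkl, Nrg1, Oas2, Sdf2l1 and Stat2 of the rises and Rcbtb2 and Tufm of the falls were not called after it, with adjusted p-values from 0.0510 for Oas2 to 0.144 for Lcn2. The arrays of the groups did not overlap for 20 higher genes (0.173%) and 10 lower genes (0.0864%), and 9 and 5 of these were among the 150.

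How many genes passed depended on the arrays and on the treatment of slides. With the inferred slide as a random block 13 genes passed (10 higher, 3 lower), all of them among the 150, and all 150 kept their direction. They were Lalba, Car6, Car12, Oas1a, Bglap2, Trpm1, B020031M17Rik, Mndal, Gm13151 and Acsf2 among the rises, and Ptov1, Pltp and Flywch2 among the falls, so every other gene given below as risen or fallen was not called with that block. Leaving out 1 array at a time gave from 38 to 324 genes. Without IFNAR1-/- arrays 41, 42 and 44 there were 121 genes, and 65 of the 150 passed. Among the genes named below, Apol9a, Casp1, Cmya5, Dusp6, E2f8, Gbp3, Ifit3, Lcn2, Mcm2, Mlkl, Socs2 and Stat2 of the rises and Psmb7, H19, Dmwd, Atp6v0d1, P4ha2, Tcp1, Tufm and Rcbtb2 of the falls were not called without them. When single arrays were left out, the lowest count came without Her2/Neu+/IFNAR1-/- array 109 and the highest without IFNAR1-/- array 42, and 28 genes (22 higher, 6 lower) passed in each of the 17 such fits. Within the array sets, which hold 4 against 3 and 5 against 5 arrays, 2 and 6 genes passed, and 149 of the 150 had the same direction in both sets, as did 64.2% of all genes. For 45 of the 150 at least 50% of the values of a group were repeated or at the limit. A gene with several probes counted as repeated on an array only if all of its probes were. Repeats at some of its probes are thus not counted. The other 105 were 73 of the higher and 32 of the lower genes, and folds are given only for these.

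Genes that type I interferon is known to induce formed the list with the most members past the threshold, in glands of which none has the receptor by its label. Of the 31 measured genes of an interferon-stimulated list, 7 rose (Oas1a, Oasl2, Rtp4, Usp18, Oas2, Ifit3 and Stat2) and 0 fell, beside 0.933% and 0.363% of all genes, and 27 had a positive change, beside 61.6% of all genes. The median change of the list was 1.04, beside 0.15 over all genes. After centring each gene, the mean of the list ran from -0.56 to 1.77 with a median of -0.01 on the Her2/Neu+/IFNAR1-/- arrays, against -1.34 to -0.59 with a median of -0.82 on the IFNAR1-/- arrays. The values spread more widely among the oncogene-bearing glands, and the lowest of them stood just above the highest IFNAR1-/- gland. The interferon-stimulated mean was highest on Her2/Neu+/IFNAR1-/- arrays 110 (1.77), 105 (1.56) and 109 (0.61), and the other 6 lay between -0.56 and 0.40. The centred mean of the luminal epithelial markers on arrays 110, 105 and 109 was 1.24, 1.27 and 0.12, with the other 6 between -1.14 and 0.68, against -1.30 to 1.03 on the IFNAR1-/- arrays. Arrays 110 and 105 were thus the highest for these markers as well, and their part in the interferon genes was not tested. The mean of the ERK targets and feedback list described below was also highest on those 3 arrays, at 1.21, 1.66 and 1.25, with the other 6 between -0.55 and 0.91, against -0.86 to -0.32 on the IFNAR1-/- arrays.

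Of the list genes that rose, 4 had a promoter entry, and all 4 promoters are shown. Rtp4, Usp18 and Oas2 had no entry and were not searched. Of the 4 promoters 3 hold a match to a spaced pair of GAAA and 1 does not. That pair was taken from general knowledge of interferon-stimulated response elements, since none of the files used here gives a motif. Each is the 250 bases before the RefSeq start of the gene in the mouse build GRCm38.p6, written 5′ to 3′ on the strand of the gene. Capitals mark matches, on either strand, to GAAA followed by any 2 bases and a second GAAA, which on the other strand reads TTTC, any 2 bases and TTTC. The windows are chr19:34583279-34583528 on the plus strand for Ifit3, chr5:120907526-120907775 on the minus strand for Oas1a, chr10:128270248-128270497 on the plus strand for Stat2 and chr5:114896684-114896933 on the plus strand for Oasl2.
Ifit3: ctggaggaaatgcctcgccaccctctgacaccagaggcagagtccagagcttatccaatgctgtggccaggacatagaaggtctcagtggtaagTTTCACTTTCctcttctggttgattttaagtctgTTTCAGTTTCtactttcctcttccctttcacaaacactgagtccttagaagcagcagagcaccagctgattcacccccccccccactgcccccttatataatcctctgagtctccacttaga
Oas1a: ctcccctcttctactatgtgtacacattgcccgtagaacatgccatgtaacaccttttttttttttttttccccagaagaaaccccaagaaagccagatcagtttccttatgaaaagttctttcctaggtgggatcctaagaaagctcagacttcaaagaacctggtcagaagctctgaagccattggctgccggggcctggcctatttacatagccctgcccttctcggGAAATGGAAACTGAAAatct
Stat2: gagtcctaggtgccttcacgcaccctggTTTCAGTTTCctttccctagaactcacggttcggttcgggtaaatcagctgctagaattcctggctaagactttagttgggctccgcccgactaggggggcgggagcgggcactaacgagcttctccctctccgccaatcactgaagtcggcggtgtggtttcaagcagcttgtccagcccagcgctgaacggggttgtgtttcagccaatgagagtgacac
Oasl2: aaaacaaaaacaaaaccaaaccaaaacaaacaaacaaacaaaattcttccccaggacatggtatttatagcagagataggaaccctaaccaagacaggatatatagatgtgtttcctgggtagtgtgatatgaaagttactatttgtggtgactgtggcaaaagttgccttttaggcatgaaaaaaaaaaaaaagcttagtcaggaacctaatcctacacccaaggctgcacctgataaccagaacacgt
The motif was present in 821 of 27025 mouse promoters of this length (3.04%). It was present in 10 of the 20 measured list members with a promoter entry (50.0%), and in 9 of the 78 genes that rose and had one (11.5%), namely Mndal, Gbp3, Oas1a, Haus5, E2f8, Stat2, Apol9a, Apol9b and Ifit3. Of these, Oas1a, Stat2 and Ifit3 are also list members, so the 2 shares are not independent. Among the genes tested with an entry, 236 of 8891 held the motif (2.65%). None of the 30 genes that fell and had an entry held it, but at that low share 30 genes are too few to show a difference. A match is a description of the letters and not a site. Ifit3 and Oas1a each held 2 matches, which overlap in Oas1a just before its start.

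Several genes of the oligoadenylate synthetase family, known for making the 2-5A that activates RNase L against viral RNA, rose. Oas1a had log2 ratios from -1.60 to 2.86 with a median of 0.51 in Her2/Neu+/IFNAR1-/- glands, against -4.64 to -1.76 with a median of -2.86 in IFNAR1-/- glands. All 9 oncogene-bearing arrays lay above all 8 arrays without it, and the change was 3.33 ± 0.57 (SE, adjusted p = 0.00472). Its 2 probes gave changes of 1.79 and 4.86, and with repeated values set to missing its change was 4.86, that of the higher probe. Oas1f, a close paralog whose probe may also read Oas1a and other paralogs, rose by 3.22 ± 0.64 (adjusted p = 0.0121). Oas2 had log2 ratios from -2.36 to 2.87 with a median of -0.24 in Her2/Neu+/IFNAR1-/- glands, against -4.82 to -0.96 with a median of -2.97 in IFNAR1-/- glands (change 2.81 ± 0.63, adjusted p = 0.0299). Oasl2, a relative with ubiquitin-like domains, was at -1.06 to 3.05 with a median of 0.18 in Her2/Neu+/IFNAR1-/- glands, against -3.34 to -0.79 with a median of -2.11 in IFNAR1-/- glands (change 2.70 ± 0.53, adjusted p = 0.0113). For Oas2 and Oasl2 the groups overlapped at their edges, with 6 and 7 of the 9 oncogene-bearing arrays above every array without it.

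Rtp4, a chaperone for membrane receptors that is also an interferon-induced antiviral gene, had log2 ratios from -2.70 to 1.70 with a median of -1.19 in Her2/Neu+/IFNAR1-/- glands, against -5.27 to -1.97 with a median of -3.72 in IFNAR1-/- glands. Its change was 3.06 ± 0.60, or 8.36-fold (adjusted p = 0.0117), and 7 of the 9 arrays lay above all 8. Usp18, the protease that removes ISG15 and dampens signalling at IFNAR2, ran from -2.62 to 0.88 with a median of -1.14, against -5.63 to -1.85 with a median of -3.45 (change 2.75 ± 0.60, 6.72-fold, adjusted p = 0.0263). Ifit3, of the family that binds foreign RNA, stood at -0.05 to 3.94 with a median of 2.10, against -0.60 to 0.46 with a median of -0.14 (change 2.05 ± 0.48, adjusted p = 0.0335). In IFNAR1-/- glands 4 of its 8 values were repeated, so no fold is given. Stat2, a transcription factor of type I interferon signalling, was named after its values were seen and was the member closest to the threshold, at 1.32 ± 0.84 (SD, n = 9) against -0.23 ± 0.97 (n = 8), a change of 1.54 ± 0.40 (adjusted p = 0.0495).

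Among these 7 genes, Oas1a, Oasl2 and Rtp4 passed in each of the fits that leave out 1 array, and Oas1a also passed with slide as a random block (adjusted p = 0.0362). The number of list members that passed was 1 with slide as a random block, 3 when the fit held just the 17 arrays, 4 after quantile normalization and 5 without IFNAR1-/- arrays 41, 42 and 44. It ran from 3 to 9 when 1 array was left out, and was 3 without Her2/Neu+/IFNAR1-/- array 105, 109 or 110 or IFNAR1-/- array 44, 46 or 47. Within each array set 0 members passed, with median changes of the list of 1.06 and 1.19.

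**Figure D1:**
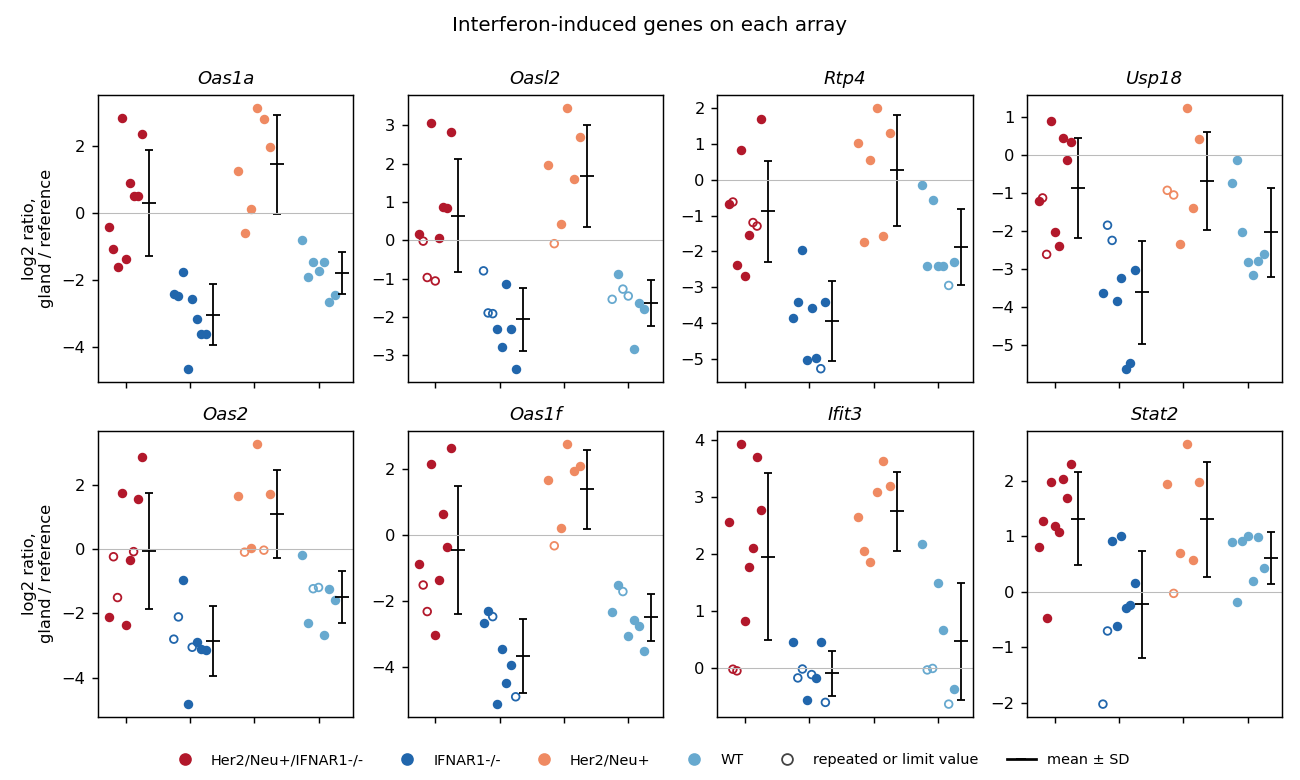
Log2 ratio of gland over reference for 8 interferon-induced genes on each array, with the mean and SD beside the points of each group and open circles for repeated or limit values. All 9 Her2/Neu+/IFNAR1-/- arrays lie above all 8 IFNAR1-/- arrays for Oas1a, and 7 of 9 do for Oasl2, Rtp4, Oas1f, Ifit3 and Stat2.

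Apol9a, Mndal and Cgas, which belong to none of the lists, also rose. Apol9a, an interferon-induced apolipoprotein L, ran from -1.04 to 3.33 with a median of 0.34 in Her2/Neu+/IFNAR1-/- glands, against -2.91 to -0.58 with a median of -1.44 in IFNAR1-/- glands (change 2.40 ± 0.51, 5.29-fold, adjusted p = 0.0197). It has a near-identical neighbour, Apol9b, which also rose, and the probes may not tell them apart. With repeated values set to missing the change of Apol9a was 2.11, that of the lower of its 2 probes. Mndal, a member of the interferon-inducible p200 family, rose to 2.25 ± 0.91 (SD, n = 9) against 0.38 ± 0.53 (n = 8), with 8 of 9 arrays above all 8 (change 1.87 ± 0.36, 3.65-fold, adjusted p = 0.0109), and it passed with slide as a random block (adjusted p = 0.0488). Cgas, the sensor of cytosolic DNA that lies upstream of interferon induction, ran from -1.21 to 2.46 with a median of 0.00, against -3.01 to -0.18 with a median of -1.55 (change 2.26 ± 0.46, adjusted p = 0.0172). Mndal and Cgas were named after their values were seen. Of 11 measured genes that respond mainly to interferon gamma, 1 rose, the guanylate-binding protein gene Gbp3, at 2.02 ± 1.66 against -0.20 ± 0.70 (change 2.22 ± 0.55, adjusted p = 0.0430). All 11 had a positive change and their median was 1.06. Over all genes 0.933% rose, 61.6% were positive and the median was 0.15.

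The listed antigen presentation genes did not pass. Of 15 measured genes of MHC class I and peptide loading 0 rose and 0 fell, with 15 positive changes, a median of 0.38 and 3 unadjusted p-values under 0.05, beside 61.6% of all genes positive and 18.4% with such a p. Psmb9, an immunoproteasome subunit, stood at 1.95 ± 0.61 against 1.05 ± 0.50 (change 0.90 ± 0.29, adjusted p = 0.0973), and H2-K1, a class I heavy chain read by 11 probes that may also read related genes, at 2.89 ± 0.49 against 2.18 ± 0.27 (change 0.72 ± 0.27, adjusted p = 0.149). Among 6 measured MHC class II genes 0 passed, with a median change of 0.19.

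Genes known as outputs of the ERK pathway gave calls in the same direction. Of 15 measured ERK targets and feedback regulators 2 rose, Ier3 and Dusp6, and 0 fell, with a median change of 0.93, 13 positive changes and 8 unadjusted p-values under 0.05. Over all genes 0.933% rose, 61.6% were positive and 18.4% had such a p. Ier3, an immediate early gene that ERK induces and phosphorylates, ran from -2.92 to 1.56 with a median of -1.35 in Her2/Neu+/IFNAR1-/- glands, against -5.28 to -2.31 with a median of -3.68 in IFNAR1-/- glands (change 3.15 ± 0.59, 8.89-fold, adjusted p = 0.00742). Of the oncogene-bearing arrays 7 of 9 lay above all 8 IFNAR1-/- arrays. Dusp6, the phosphatase that feeds back on ERK, stood at -0.81 to 1.93 with a median of 0.51, against -1.54 to -0.22 with a median of -0.74 (change 1.38 ± 0.31, 2.61-fold, adjusted p = 0.0308). Ier3 passed in every fit that left out 1 array and Dusp6 in 11 of 17, and Dusp6 was not called after quantile normalization (adjusted p = 0.0673) or without the 3 IFNAR1-/- arrays high in muscle genes (adjusted p = 0.0714). Among 17 measured immediate early genes Ier3 was the 1 that passed, and their median change was 0.52.

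Of 7 measured receptors and ligands of the ERBB family 1 rose, Nrg1, which encodes the neuregulin that binds ERBB3 and ERBB4. Its log2 ratios lay between -3.87 and -0.87 with a median of -1.41 in Her2/Neu+/IFNAR1-/- glands, against -5.45 to -2.19 with a median of -4.08 in IFNAR1-/- glands (change 2.01 ± 0.50, 4.04-fold, adjusted p = 0.0430). All values were thus below the reference, and 5 of 9 arrays lay above all 8. Nrg1 passed in 7 of the 17 fits without 1 array and was not called after quantile normalization (adjusted p = 0.0636). The median change of the family was 0.66, beside 0.15 over all genes, of which 0.933% rose. Socs2, which restrains growth hormone and prolactin signalling and is itself a target of STAT5, ran from -0.01 to 5.47 with a median of 3.73 in Her2/Neu+/IFNAR1-/- glands, against -0.02 to 1.90 with a median of 1.11 in IFNAR1-/- glands (change 2.40 ± 0.55, 5.28-fold, adjusted p = 0.0308). It is averaged over 12 probes whose changes ran from 0.38 to 3.01.

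**Figure D2:**
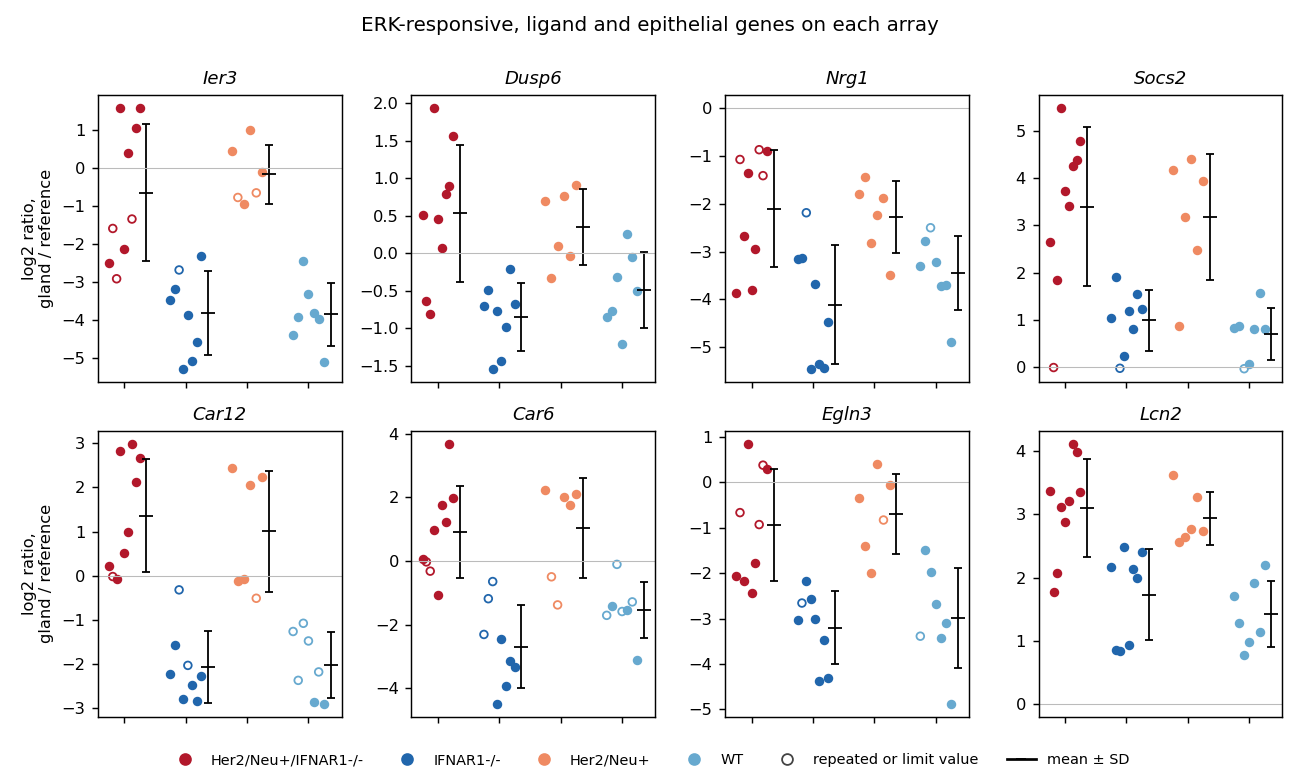
Log2 ratio of gland over reference on each array for 8 genes that rose, with the mean and SD beside the points of each group and open circles for repeated or limit values. For Car12 all 9 Her2/Neu+/IFNAR1-/- arrays lie above all 8 IFNAR1-/- arrays, while for Ier3 7 of 9 and for Nrg1 5 of 9 do.

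The largest measured rises were carbonic anhydrases. Car6, the secreted isozyme known from saliva and milk, ran from -1.06 to 3.68 with a median of 0.96 in Her2/Neu+/IFNAR1-/- glands, against -4.50 to -0.65 with a median of -2.80 in IFNAR1-/- glands. Its change was 3.61 ± 0.62, or 12.2-fold (adjusted p = 0.00472), with 8 of 9 arrays above all 8. Car12, a membrane-bound isozyme found on epithelia, ran from -0.07 to 2.99 with a median of 1.00, against -2.84 to -0.32 with a median of -2.24, and the groups did not overlap. Its change was 3.42 ± 0.51, or 10.7-fold (adjusted p = 0.000816). Both passed with slide as a random block (adjusted p = 0.0362 for Car6 and 0.00987 for Car12), after quantile normalization, without the 3 muscle-high arrays and in all 17 fits without 1 array.

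Car12 also belongs to the hypoxia list, of which 3 of 13 measured genes rose and 1 fell, beside 0.933% and 0.363% of all genes, with a median change of 0.67 beside 0.15. Egln3, a prolyl hydroxylase of HIF that HIF itself induces, rose to -0.94 ± 1.24 against -3.20 ± 0.80 (change 2.26 ± 0.49, 4.79-fold, adjusted p = 0.0235), and 8 of 9 arrays lay above all 8. The 2 collagen prolyl hydroxylase subunits moved in opposite directions. P4ha1 rose by 1.53 ± 0.34 (adjusted p = 0.0271), with changes of 0.33 and 2.12 at its 2 probes, and P4ha2 fell to -3.24 ± 0.98 against -1.99 ± 0.38 (change -1.25 ± 0.32, adjusted p = 0.0430).

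Of 12 measured genes of milk proteins and secretion 2 rose, Lalba and Lcn2, with a median change of 0.36 over the list. Over all genes 0.933% rose and the median was 0.15. Lalba, the alpha-lactalbumin subunit of lactose synthase, was at the limit of 6 on all 7 Her2/Neu+/IFNAR1-/- arrays with a value, against -0.08 to 4.33 on the 4 IFNAR1-/- arrays with a value, of which 2 were repeated values. The fitted change of 4.64 ± 0.53 (adjusted p = 0.000202) therefore has no measured size, and it was 1.67 within the first array set and 5.62 within the second. Lcn2, a secreted siderophore-binding protein of epithelia and neutrophils, ran from 1.77 to 4.11 with a median of 3.21 in Her2/Neu+/IFNAR1-/- glands, against 0.84 to 2.48 with a median of 2.06 in IFNAR1-/- glands (change 1.37 ± 0.31, 2.58-fold, adjusted p = 0.0308). It was not called after quantile normalization (change 0.96, adjusted p = 0.144) or without the 3 muscle-high arrays (adjusted p = 0.0879). In the ER folding list 1 of 19 measured genes rose, Sdf2l1, a chaperone cofactor of the ER, by 1.26 ± 0.32 (adjusted p = 0.0440) with 5 of its 9 oncogene values repeated.

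Epithelial markers gave few calls. Of 12 measured luminal markers 0 passed and the median change was 0.00. Cldn7, a tight junction claudin, had the smallest p among them, at 3.30 ± 1.61 in Her2/Neu+/IFNAR1-/- against 1.64 ± 1.22 in IFNAR1-/- glands (change 1.66 ± 0.58, adjusted p = 0.125). Its change was 0.91 without IFNAR1-/- arrays 41, 42 and 44 (limma adjusted p = 0.495). Of 10 measured hormone receptors and luminal factors 0 passed, with a median of -0.04. Among 12 measured basal and myoepithelial markers 1 fell and 0 rose, beside 0.363% and 0.933% of all genes, with a median of -0.62. That gene was Krt14, the basal keratin, with all 6 of its Her2/Neu+/IFNAR1-/- values repeated ones between -0.09 and 0.47, against -0.09 to 3.33 with a median of 2.93 on 7 IFNAR1-/- arrays. Its fitted change of -2.47 ± 0.59 (adjusted p = 0.0422) thus rests on repeated values, and it passed in 6 of the 17 fits without 1 array.

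Genes of cell division gave few calls as well. Of 22 measured proliferation genes 0 passed, while 16 changes were positive, 10 had an unadjusted p under 0.05 and the median was 0.73. Over all genes 0.933% rose, 61.6% were positive, 18.4% had such a p and the median was 0.15. Tpx2, a spindle assembly factor, was at -2.05 ± 0.97 against -4.11 ± 1.07 (change 2.06 ± 0.55, adjusted p = 0.0559), and Nusap1, a microtubule-bundling protein of the spindle, at -1.88 ± 0.94 against -3.49 ± 0.97 (change 1.62 ± 0.46, adjusted p = 0.0722). Of 12 measured genes of the MCM helicase and origin licensing 1 rose, Mcm2, by 1.78 ± 0.45 (adjusted p = 0.0430). Outside the lists, Spag5, a spindle protein, rose by 2.30 ± 0.48 (adjusted p = 0.0172), E2f8, an atypical E2F repressor, by 2.39 ± 0.61 (adjusted p = 0.0440), and Cdc25a, the phosphatase that activates CDK2, by 1.35 ± 0.30 (adjusted p = 0.0308). Spag5, E2f8 and Cdc25a were not picked by a set rule from the genes of no list. In Mcm2, Spag5, E2f8 and Cdc25a at least 5 of 9 oncogene-bearing values were repeated values, and of these 4 genes only Spag5 passed in all 17 fits without 1 array.

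Of 15 measured genes of apoptosis and the caspases 3 rose and 0 fell, beside 0.933% and 0.363% of all genes, with a median change of 0.30 beside 0.15. Casp4, the inflammatory caspase that senses lipopolysaccharide, ran from -2.49 to 0.73 with a median of -1.35 in Her2/Neu+/IFNAR1-/- glands, against -3.82 to -2.34 with a median of -3.18 in IFNAR1-/- glands (change 1.82 ± 0.35, 3.54-fold, adjusted p = 0.0104), and it passed in all 17 fits without 1 array. Casp1, the caspase of the inflammasome, stood at 1.06 ± 1.39 against -0.80 ± 0.41 (change 1.86 ± 0.44, 3.64-fold, adjusted p = 0.0357). Bid, which links death receptors to the mitochondrion, rose by 1.63 ± 0.38 (adjusted p = 0.0308), with 6 of 9 oncogene values repeated. Mlkl, the effector of necroptosis, rose by 1.62 ± 0.41 (adjusted p = 0.0430), with 7 of 9 repeated. It belongs to no list and was not picked by a set rule.

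Among 23 measured chemokines and receptors 2 rose, beside 0.933% of all genes. They were Ccl7, a monocyte attractant, by 2.20 ± 0.52 (adjusted p = 0.0337) and Cxcl1, a neutrophil attractant, by 2.01 ± 0.48 (adjusted p = 0.0357). Ccl7 had 4 of 9 and 4 of 8 repeated values in Her2/Neu+/IFNAR1-/- and IFNAR1-/- glands, and Cxcl1 had 5 of 9 and 1 of 8. Markers of immune cells gave 0 calls. Their median changes were 0.54 over 10 T and NK cell markers, 0.48 over 7 B cell markers, 0.73 over 7 plasma cell markers, 0.32 over 15 macrophage markers and 0.29 over 5 mast cell and neutrophil markers. Cd3g, of the T cell receptor complex, was at 1.01 ± 1.60 against -0.27 ± 0.60 (adjusted p = 0.177). Jchain, the joining chain of secreted immunoglobulin, was at -1.34 ± 0.29 against -2.07 ± 0.45 (adjusted p = 0.0935), and Xbp1, a factor of secretory cells, at 0.78 ± 0.70 against 0.06 ± 0.20 (adjusted p = 0.100). Mrc1, the mannose receptor of resident macrophages, was at 0.14 up to the limit of 6 against 5.30 up to that limit, with 3 and 6 arrays at the limit (adjusted p = 0.110). The centred mean of the T and NK list ran from -0.89 to 1.32 in Her2/Neu+/IFNAR1-/- and from -1.53 to 1.16 in IFNAR1-/- glands, and that of the B cell list from -1.06 to 1.19 and from -2.25 to 0.50. The part of these cells in the interferon genes was not tested.

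The falls were smaller than the rises. The 42 lower genes had a median change of -1.16, against 1.65 for the 108 higher ones. Psmb7, a catalytic subunit of the constitutive proteasome, ran from -4.53 to -0.69 with a median of -1.78 in Her2/Neu+/IFNAR1-/- glands, against -1.29 to 0.12 with a median of -0.33 in IFNAR1-/- glands (change -1.66 ± 0.37, 3.16-fold lower, adjusted p = 0.0271). H19, an imprinted long noncoding RNA, stood at -4.00 to -1.05 with a median of -1.81, against -2.37 to 0.36 with a median of -0.34 (change -1.59 ± 0.40, 3.02-fold lower, adjusted p = 0.0430). The groups overlapped for H19, and its change without the 3 muscle-high arrays was -1.18 (adjusted p = 0.187). Among the 12 largest falls with a measured size, Ptov1 alone passed with slide as a random block (adjusted p = 0.0488). It ran from -1.76 to -0.19 with a median of -1.11, against -0.54 to 0.62 with a median of 0.16 (change -1.24 ± 0.23, 2.37-fold lower, adjusted p = 0.00742), with 8 of 9 arrays below all 8.

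Tpm2 and Myl9 were also among the largest falls with a measured size. Tpm2, a tropomyosin, stood at -1.20 ± 0.71 against 0.16 ± 0.83 (change -1.36 ± 0.31, 2.57-fold lower, adjusted p = 0.0299), and Myl9, the regulatory light chain of smooth muscle myosin, at 0.01 ± 0.68 against 1.16 ± 0.56 (change -1.15 ± 0.27, 2.22-fold lower, adjusted p = 0.0357). Both also passed without the 3 IFNAR1-/- arrays high in skeletal muscle genes, at adjusted p = 0.0497 for Tpm2 and 0.0264 for Myl9. Of 10 measured smooth muscle and pericyte markers 0 passed, with a median change of -0.54. Of 8 measured skeletal muscle markers 0 passed either, with a median of -0.89. Acta1, skeletal actin, was at -0.41 to 3.98 against -0.35 to 5.72, a change of -1.60 that was 0.13 without those 3 arrays. Myl1, a fast myosin light chain, had a change of -2.05 that was -0.50 without them. Her2/Neu+/IFNAR1-/- array 106, the highest of its group for both genes, was kept in that fit.

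The other large falls were in genes of varied function. Cdk18, a cyclin-dependent kinase, fell by 1.35 ± 0.30 on the log2 scale (adjusted p = 0.0271), Tcp1, a subunit of the cytosolic chaperonin, by 1.20 ± 0.29 (adjusted p = 0.0357) and Tufm, the mitochondrial elongation factor, by 1.20 ± 0.30 (adjusted p = 0.0438). Atp6v0d1, of the vacuolar proton pump, fell by 1.27 ± 0.32 (adjusted p = 0.0430), Dmwd by 1.34 ± 0.33 (adjusted p = 0.0430) and Rcbtb2 by 1.16 ± 0.29 (adjusted p = 0.0430). From 5 to 7 of the 9 oncogene-bearing arrays lay below all 8 IFNAR1-/- arrays for each of these except Cdk18, with 2. Of these 6 genes only Cdk18 passed without the 3 muscle-high arrays (adjusted p = 0.0185), and the other 5 had adjusted p-values from 0.0904 to 0.123 there. Pltp, the phospholipid transfer protein, fell to 0.31 ± 0.73 against 2.21 ± 0.85 (change -1.90 ± 0.34, adjusted p = 0.00663). It passed with slide as a random block (adjusted p = 0.0362), with 6 of 9 oncogene values repeated.

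**Figure D3:**
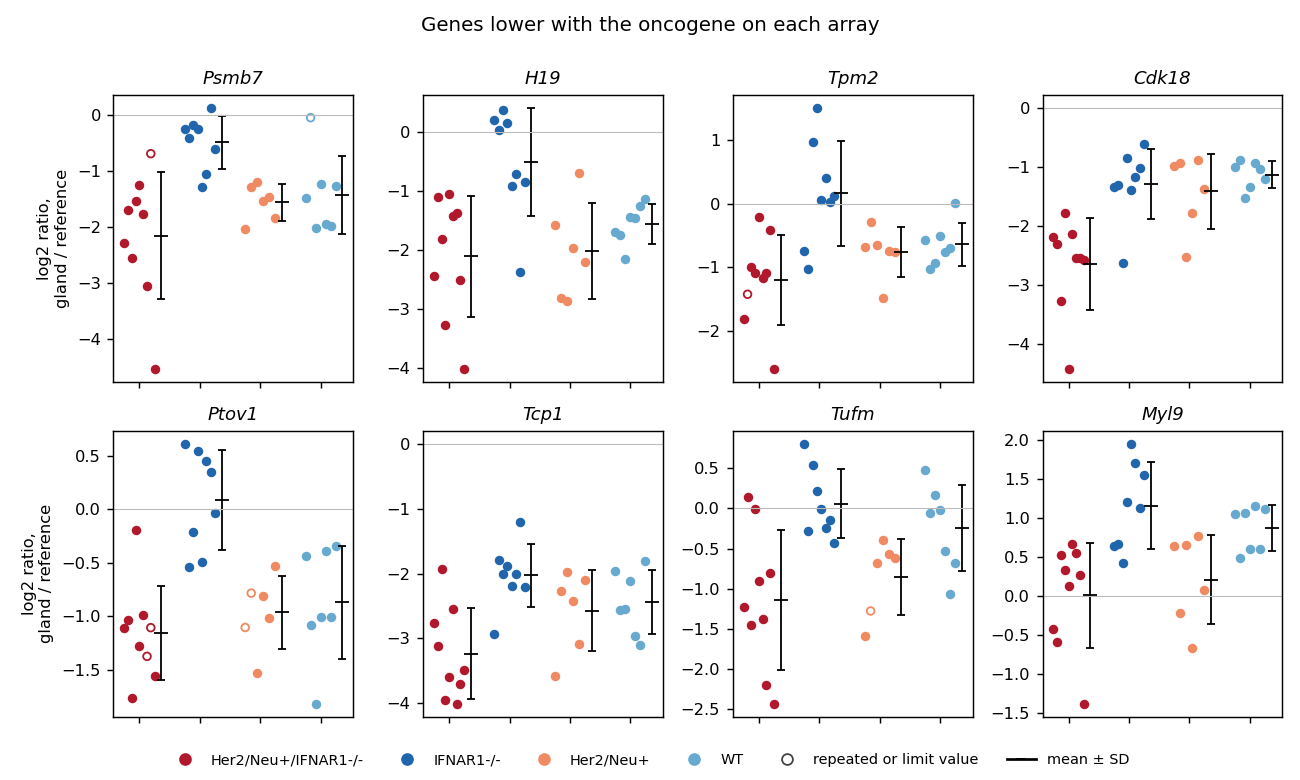
Log2 ratio of gland over reference on each array for 8 genes that fell, with the mean and SD beside the points of each group and open circles for repeated or limit values. For Psmb7 7 of 9 and for Ptov1 8 of 9 Her2/Neu+/IFNAR1-/- arrays lie below all 8 IFNAR1-/- arrays.

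Lists of metabolism, fat and matrix held no gene past the threshold. Of 19 measured genes of fatty acid oxidation 4 had a positive change, 5 had an unadjusted p under 0.05 and were lower, and the median was -0.40. Over all genes 61.6% were positive, 5.0% were lower at such a p and the median was 0.15. Hadha, the alpha subunit of the mitochondrial trifunctional protein, was at -0.15 to 3.00 with a median of -0.01 and 6 repeated values in Her2/Neu+/IFNAR1-/- glands, against 1.18 to 5.71 with a median of 1.91 in IFNAR1-/- glands (change -1.93 ± 0.52, adjusted p = 0.0590). Hadha was called after quantile normalization (adjusted p = 0.0422). Without IFNAR1-/- arrays 41, 42 and 44, which were high in muscle genes, its change was -1.22 (limma adjusted p = 0.177). The subunits of respiratory complex I had a median of -0.26 over 36 genes, 3 of them with a positive change, and those of complexes II to V a median of -0.15 over 37 genes, 4 of them positive. Ndufa10 of complex I was at -1.22 ± 0.89 against 0.05 ± 0.75 (adjusted p = 0.0722), and Sdhb of complex II at -0.09 ± 0.84 against 0.99 ± 0.69 (adjusted p = 0.0832). Without those muscle-high arrays the change of Sdhb went from -1.08 to -0.74 (limma adjusted p = 0.317). That of Ndufa10 went from -1.26 to -1.31 (limma adjusted p = 0.108). The centred mean of the complex I list ran from -0.63 to 0.49 with a median of -0.27 in Her2/Neu+/IFNAR1-/- glands, against -0.33 to 0.61 with a median of 0.06 in IFNAR1-/- glands.

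Of 32 measured collagens and matrix genes 6 had a positive change, 9 had an unadjusted p under 0.05 and were lower, and the median was -0.36. The same over all genes were 61.6%, 5.0% and 0.15. Timp2, an inhibitor of metalloproteinases, stood at -0.76 ± 0.67 against 0.06 ± 0.30, with 8 of 9 arrays below all 8 (change -0.81 ± 0.24, adjusted p = 0.0812). White adipocyte markers, of the cells that fill the gland, had a median of -0.00 over 17 genes, and the genes of fatty acid and triglyceride synthesis a median of 0.04 over 23. Lep, the adipocyte hormone leptin, was at 3.59 ± 1.27 (n = 7) against 4.85 ± 0.95 (n = 7) (change -1.26 ± 0.64, adjusted p = 0.291). The median was 0.24 over 15 genes of cholesterol synthesis, -0.08 over 18 of glycolysis, -0.05 over 69 cytosolic ribosomal proteins and -0.18 over 10 endothelial markers, with 0 calls in each.

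**Figure D4:**
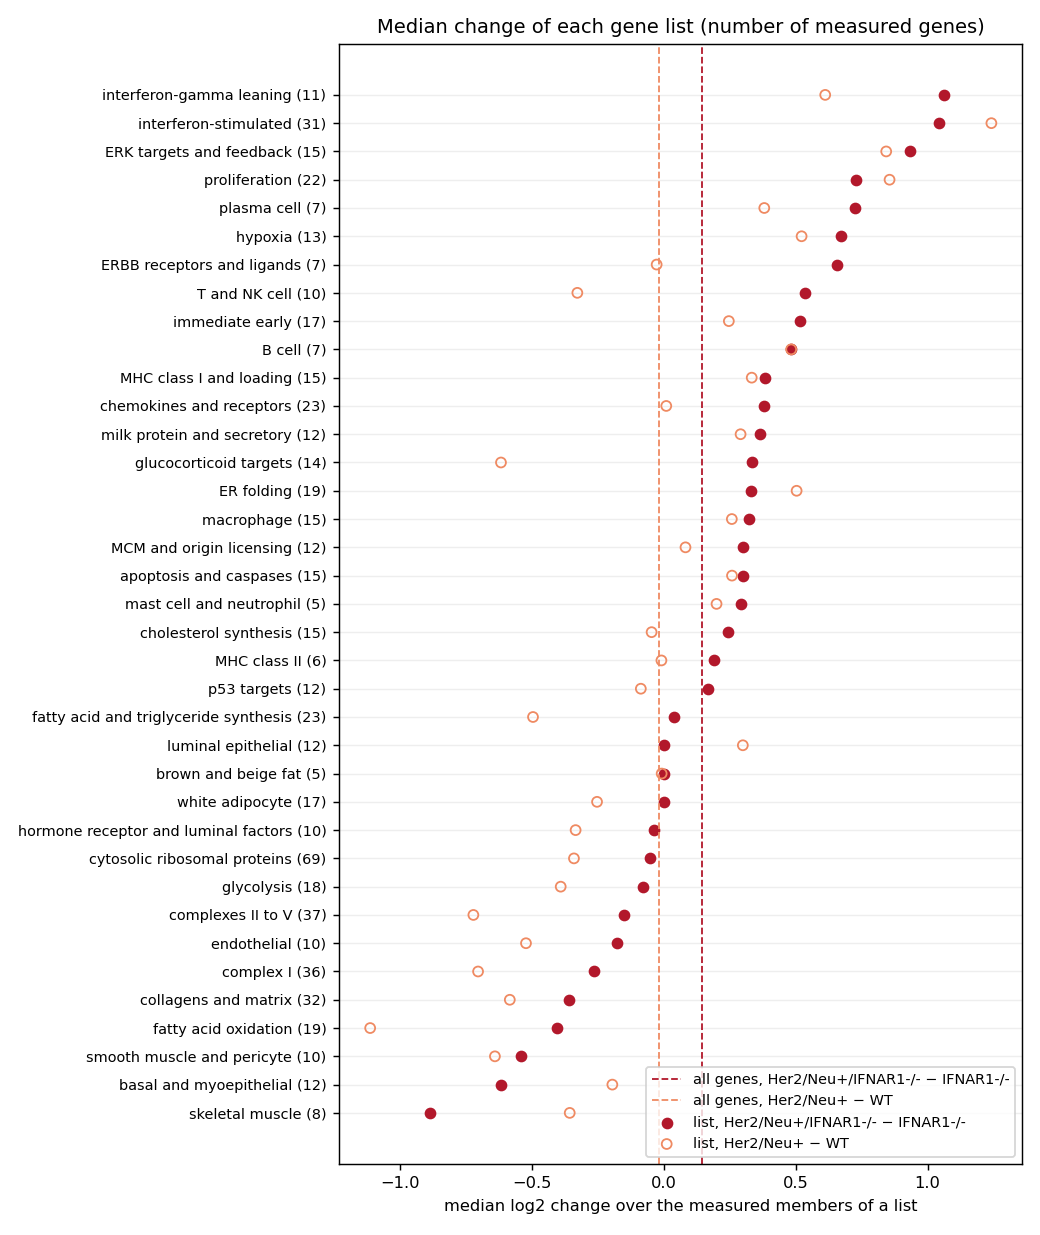
Median log2 change over the measured genes of each list with at least 5 of them, for Her2/Neu+/IFNAR1-/- minus IFNAR1-/- (filled) and Her2/Neu+ minus WT (open), with dashed lines at the medians of all genes, 0.15 and -0.02. The interferon and ERK lists lie near 1 in the receptor-deficient comparison, and skeletal muscle lies lowest at -0.89.

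The same contrast in mice with the receptor, Her2/Neu+ minus WT, uses other arrays and shows whether the genes reported here also moved there. Both contrasts come from the same fit and share each gene's estimate of the spread. The p-values of this contrast are therefore not independent of the calls reported above. No inferred slide held arrays of both of these groups either, so slide and oncogene cannot be told apart in this contrast. It had 15 genes past the threshold (0.13% of those tested). Of the 108 genes that rose without the receptor 91 had a positive change there (84.3%, beside 48.6% of all genes), 36 of them with an unadjusted p under 0.05, beside 5.36% of all genes, and 10 passed the adjusted test. Of the 42 that fell 29 had a negative change there (69.0%, beside 51.4% of all genes), and 4 of those had an unadjusted p under 0.05, beside 6.62%. None of the 150 moved the opposite way there at an unadjusted p under 0.05. The median change there was 0.55 for the 108 genes and -0.13 for the 42, beside 1.65 and -1.16 in the contrast that chose them.

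Some of the named genes passed in both contrasts. Oas1a rose by 3.33 ± 0.57 in receptor-deficient and 3.24 ± 0.65 in receptor-bearing glands, Oasl2 by 2.70 ± 0.53 and 3.30 ± 0.60, Ier3 by 3.15 ± 0.59 and 3.67 ± 0.67, Car12 by 3.42 ± 0.51 and 3.02 ± 0.58, and Casp4 by 1.82 ± 0.35 and 1.86 ± 0.40, and all 5 passed in both. Oas1f, Lalba, Bglap2 and Sdf2l1 passed in both as well. For Lalba, Bglap2 and Sdf2l1 at least 50% of the values of a compared group were repeated or at the limit. Mndal had a change of -0.18 ± 0.41 in receptor-bearing glands beside 1.87 ± 0.36 without the receptor, but the difference of 2.04 did not pass its test (adjusted p = 0.426). Psmb7 was at -0.14 ± 0.42 there, beside -1.66 ± 0.37, and that difference did not pass either (adjusted p = 0.485). The interferon-stimulated list had median changes of 1.04 without and 1.24 with the receptor. Fatty acid oxidation had medians of -0.40 and -1.11, complex I of -0.26 and -0.70, and glucocorticoid targets of 0.33 and -0.62.

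**Figure D5:**
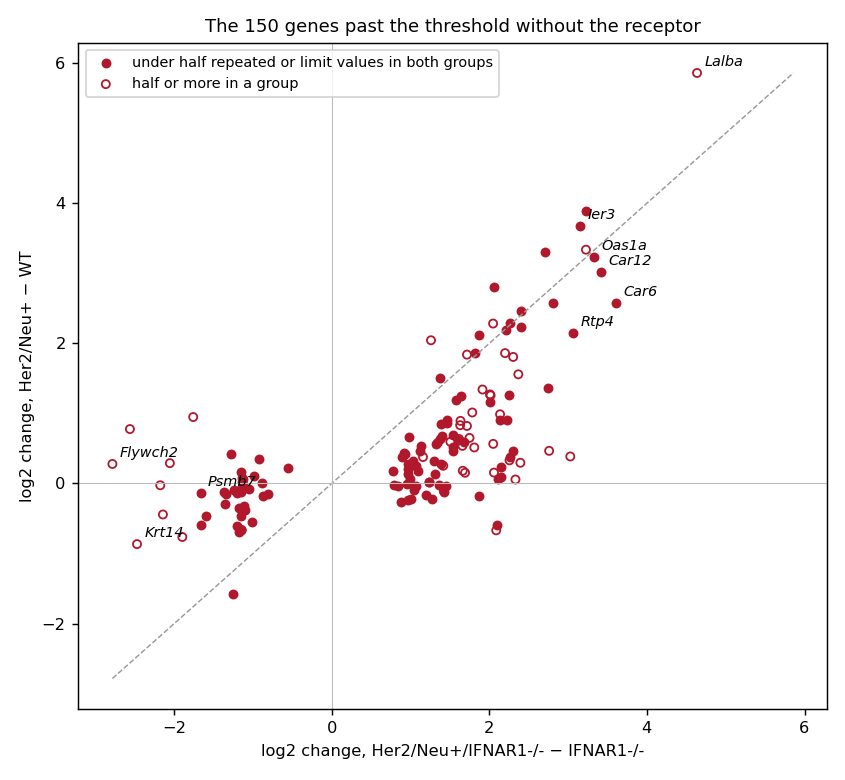
Log2 change in Her2/Neu+ minus WT glands against that in Her2/Neu+/IFNAR1-/- minus IFNAR1-/- glands for the 150 genes past the threshold in the receptor-deficient contrast, with the diagonal dashed and open circles for genes with at least 50% repeated or limit values in a group. Of the 108 rises 91 lie above 0 on the vertical axis, while the falls lie on both sides of 0 there, with a median of -0.13 and P4ha2 lowest at -1.58.

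The test of the difference between the contrasts called 2 of 11575 genes (0.0173%), beside 1114 (9.62%) at an unadjusted p under 0.05. Tsc22d3, the glucocorticoid-induced leucine zipper, was at 1.52 to 2.50 with a median of 1.91 in Her2/Neu+/IFNAR1-/- glands, against 0.57 to 2.30 with a median of 1.44 in IFNAR1-/- glands, a change of 0.54 ± 0.27 (adjusted p = 0.280). It fell by 1.87 ± 0.31 in Her2/Neu+ against WT glands (adjusted p = 0.00473), and the difference of 2.41 passed (adjusted p = 0.0233). For Flywch2 the change was -2.78 ± 0.31 without the receptor and 0.28 ± 0.37 with it (difference -3.06, adjusted p = 0.0287). However, all 5 of its Her2/Neu+/IFNAR1-/- values, all 5 of its WT values and 2 of its 3 Her2/Neu+ values were repeated values. In IFNAR1-/- glands 2 of 6 were. The Flywch2 difference therefore has no measured size. Neither gene's difference was called with slide as a random block or with repeated values set to missing, where 0 genes passed.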

How the data were processed

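The authors deposited 1 table of log2 ratios of gland over reference for 20896 probes on 2-colour Agilent arrays, 30 in all, with Cy5 on the gland and Cy3 on the reference per the labels. The log base was inferred from the limit of 6. The background correction, the normalization and the origin of repeated values are not given in the sources used here. Probes carrying 1 symbol (17376) were kept if 50% or more of each compared group's arrays had a value, and averaged per gene, which gave 11576 genes (2641 with several probes), with no further scaling.

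All groups were fitted together with limma 3.58.1 in R 4.3.3 (lmFit, eBayes), two-sided, with 0.05 as the threshold for Benjamini-Hochberg adjusted p-values. Errors of a change are SE. The labels number separate samples without saying that they are separate mice, so the spread behind a p-value is that between samples and may be technical. The fit was tested on simulated data.

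Named genes are the 12 largest rises and 12 largest falls with an official symbol and under 50% repeated or limit values, up to 3 members of each list past the threshold (or up to 2 with the smallest p, as values), the ERBB receptors, Ifnar1 and Ifnar2. Of the 45 called genes with 50% or more such values only some are named, with no fold. Those of no list among them, such as Spag5, E2f8, Cdc25a, Mlkl, Pltp and Bglap2, were not picked by a set rule. Cgas, Mndal, Stat2, Trpm1, Acsf2 and H2-Q8 were named after their values were seen. The comparison, the gene lists and the alternatives were chosen with earlier results of these data known. Promoters are RefSeq's, on GRCm38.p6. Alternatives covered scaling, filters, the choice of probe, the arrays and groups in the fit, slides and array sets, repeated values, and muscle and B cell covariates.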

Additional observations from a re-analysis of the deposited data

Results flagged for a closer look

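A single array stood apart from the rest of its group in 17 of 228 sets of values (a gene or list mean in 1 of the 2 groups) by Dixon's criterion, which marks about 1 in 20 by chance. Of the muscle genes, Her2/Neu+/IFNAR1-/- array 106 was at 3.98 for Acta1 (others -0.41 to 0.43), at 4.74 for Myl1 (others -0.01 to 1.56) and at 3.40 for the mean of the skeletal muscle list (others -0.85 to 0.85). Her2/Neu+/IFNAR1-/- array 103 was highest for the brown and beige fat list, at 1.13 (others -0.65 to 0.11), and for the list of complexes II to V, at 0.74 (others -0.57 to -0.02). In the same group array 104 was at 3.00 for Hadha (others -0.15 to 1.22), array 102 at 0.47 for Krt14 (others -0.09 to -0.01, all repeated values) and array 105 at -0.19 for Ptov1 (others -1.76 to -0.98).

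Among IFNAR1-/- glands, array 42 was at -2.62 for Cdk18 (others -1.38 to -0.61), at 0.24 for the ER folding list (others -0.32 to -0.12) and at -0.77 for the endothelial list (others -0.05 to 0.34). Array 41 was at -1.03 for Ifnar2 (others -0.04 to 0.67) and at -0.088 for Krt14 (others 2.02 to 3.33). Array 45 was at -0.31 for Elovl5 (others 0.50 to 1.19) and at 1.30 for Gbp3 (others -0.94 to 0.06). Array 47 was at -2.37 for H19 (others -0.91 to 0.36), and array 39 at 0.35 for the white adipocyte list (others -0.04 to 0.13).

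The change with the oncogene differed between receptor states for 2 genes by the interaction test in limma, by -3.06 ± 0.48 (SE) for Flywch2 and by 2.41 ± 0.41 for Tsc22d3. For Flywch2 most values outside the IFNAR1-/- group were repeated values, so its difference has no measured size. Neither difference was called with slide as a random block or with repeated values missing.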

How the results depend on the processing

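The 150 genes became 31 when the fit held just the 17 arrays compared, 640 with array weights, 13 with slide as a random block, 51 with array position as a fixed term, 2 and 6 within array sets 1 and 2, and 287 of 6610 testable genes with repeated values missing. They were 14 at an adjusted p under 0.01. With repeated values missing 108 of the 150 could be tested, and 94 passed in the same direction. Of the named genes, Ccl7, P4ha1, Rcbtb2 and Stat2 were tested but not called there, with Rcbtb2 at a change of -0.62 (limma adjusted p = 0.183). Leaving out single arrays gave from 38 to 324. The count stayed within 1.5 times of the reported one under quantile normalization (40 higher, 67 lower), median centring (137), the filter over the 4 groups (150), a value required on every array (206), the probe with the largest SD (141), a variance trend (139), array set as a fixed term (157), a muscle covariate (130), a B cell covariate (184), without IFNAR1-/- arrays 41, 42 and 44 (121) and at 2-fold or more (130). The 2 genes whose change differed between receptor states became 0 with slide as a random block and 0 with repeated values missing, and stayed 2 under quantile normalization and array set as a fixed term. Fewer arrays were fitted within a set and fewer genes without repeated values, and the causes of the other shifts were not tested. No called gene named here changed direction under these alternatives, H2-Q8 aside, for which most of them are not given. No paired analysis was possible because the groups share no sample numbers. With no intensities in the table, what signal over background limits is unknown.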

Other observations

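Several genes of no list also rose. Trpm1, a cation channel of melanocytes and retinal bipolar cells, ran from 1.39 to 3.64 with a median of 2.61 in Her2/Neu+/IFNAR1-/- glands, against -0.66 to 1.22 with a median of 0.88 in IFNAR1-/- glands. All 9 arrays lay above all 8, and the change was 2.23 ± 0.35, or 4.69-fold (limma adjusted p = 0.00168, and 0.0104 with slide as a random block). Acsf2, an acyl-CoA synthetase of mitochondria, was at 1.11 to 2.36 with a median of 1.59, against 0.06 to 1.05 with a median of 0.74, again with no overlap (change 1.04 ± 0.18, 2.06-fold, adjusted p = 0.00576). Both passed in all 17 fits without 1 array, and both were named after their values were seen. Bglap2, an osteocalcin gene with close paralogs, was at 3.19 to 5.43 on 7 arrays against -0.50 to 2.28 on 8, of which 5 were repeated values (change 3.23 ± 0.58, adjusted p = 0.00719). Its change in Her2/Neu+ against WT glands was 3.34 ± 0.64. Cmya5, a desmin-binding protein of striated muscle, was at -0.09 to 5.70 with a median of 2.69, against -0.48 to 1.93 with a median of 0.10 (change 2.30 ± 0.59, 4.92-fold, adjusted p = 0.0438), while the skeletal muscle list had a median change of -0.89.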
